A study of Mus musculus with 29 samples.

Results

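The IL-23 and IL-17 axis was followed in the mouse colon through 9 genes, the cytokine genes Il23a, Il17a, Il17f and Il17c, the receptor genes Il23r, Il17ra, Il17rc and Il17re, and the chemokine receptor gene Ccr6. They were chosen by name, and all 9 were found among the 54532 genes of the count table. All 9 had a mean count of at least 3 over the 29 mice and were tested with 18616 genes in all. IL-23 is a dimer of the p19 chain, encoded by Il23a, and the p40 chain shared with IL-12, and it acts through IL-23R to maintain type 17 lymphocytes. Those cells (Th17 cells, gamma-delta T cells and group 3 innate lymphoid cells) release IL-17A and IL-17F, which signal through IL-17RA paired with IL-17RC on epithelium and stroma and induce chemokines that draw neutrophils. IL-17C is made by epithelium itself and acts through IL-17RA paired with IL-17RE, and CCR6, the receptor for CCL20, marks type 17 cells as well as B cells.

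Whole colon segments of 29 mice were sequenced as poly(A) RNA, 1 library per mouse. TRUC mice (n = 4) were untreated Balb/C Tbx21-/- x Rag2-/- animals, which develop colitis without T or B cells, and were set beside untreated Balb/C Rag2-/- mice (n = 3). Untreated Balb/C wild-type mice (n = 3) were the controls of 3 groups of Balb/C mice: DSS, with 3% dextran sulphate in drinking water for 5 days and culling at day 10 (n = 3), DNBS, with 3 mg given rectally in 50% ethanol (n = 3), and IL-10 deficiency (n = 4), labelled as an IL-10 blocking antibody, with a dose of 750 µg given for an antibody against the IL-10 receptor and culling at week 4 or earlier. Untreated C57BL/6 Rag1-/- mice (n = 3) were the labelled controls of TCT, the transfer of 500000 naive CD4+ T cells with culling after 6 to 8 weeks (n = 3), and of an agonistic anti-CD40 antibody, 50 µg with culling after 7 days (n = 3), both labelled C57BL/6 Rag1-/-. All Rag-deficient groups lack their own T and B cells, so in TCT the T cells are those transferred, and in DNBS, DSS and IL-10 deficiency the lymphocytes are the mouse's own. These descriptions follow the labels, which give no ages. The published methods differ from them in places: DSS was given to C57BL/6 mice there with another schedule, and the IL-10 model is described as a gene knockout. The treatment protocol in the labels names Rag2-/- recipients for the T-cell transfer.

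Total counts ran from 10725564 to 14977094 per mouse. Values are CPM, each gene's count scaled by its library's size and TMM factor, and a count of 0 allows up to 3 counts, or 0.179 to 0.313 CPM depending on the mouse. Intervals and floors cover counting error only. By Rag transcripts, neither the anti-CD40 mice nor the controls labelled Rag1-/- separated from Rag2-/- libraries. Rag2 counts were 15 to 25 in the Rag2-/- controls, 57 to 94 in TRUC, 6 to 20 in the libraries labelled Rag1-/- control and 48 to 99 in those labelled anti-CD40. They were 0 in all 3 TCT mice, which alone had Rag1 counts of 20 to 33, against at most 4 in every other mouse. Results for TCT and anti-CD40 are therefore given with other controls too, and their strain and genotype were not settled here. By label those other controls are Balb/C, so strain and treatment cannot be told apart in these comparisons. Tbx21 counts of 26 to 52 were present in TRUC, and Il10 counts of 61 to 111 in IL-10 deficiency against 1 to 4 in its controls. The deleted parts of the Rag genes and of Tbx21 are not known here, so those counts check no label. By its label the IL-10 group had an antibody and no deletion. How its Il10 counts bear on the knockout of the published methods was not tested. Among the DSS mice, mouse 8 stood apart with summed neutrophil markers of 2444 CPM against 501 and 757 CPM in the others, and results that rest on it are given with and without it. Changes were tested with edgeR's quasi-likelihood method in a fit of all 9 groups that share an estimate of the spread, with p-values adjusted by Benjamini-Hochberg over all genes tested, and a gene was called at an adjusted p under 0.05.

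Per base of exon, Il17rc, the IL-17A and IL-17F co-receptor, was the most abundant of the 9 genes in every group. In the wild-type controls its level was 40.8 ± 5.66 FPKM (SD, n = 3), followed by Il17re at 4.88 ± 0.634 FPKM, Il17ra at 2.41 ± 0.184 FPKM and Ccr6 at 0.912 ± 0.187 FPKM. The ranges of these 4 genes did not overlap across the 3 mice. The ligands were far lower. Il17c was at 0.448 ± 0.0209 FPKM and Il23a at 0.206 ± 0.168 FPKM, while Il17f at 0.0731 ± 0.0368 FPKM and Il23r at 0.0651 ± 0.0876 FPKM were not separated beyond their spread, and Il17a had no count in any of the 9 control mice of the study. Over the 9 control mice the 4 ligand genes had 0 to 11 counts per library.

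Against their own controls, IL-10 deficiency and DSS had the most calls among the 9 genes. In DSS 4 were higher, against 17.7% of all genes, and 1 was lower, against 16.3% of all genes. In IL-10 deficiency 4 were higher, against 27.2%, and 1 lower, against 26.1%. In TRUC 1 was higher, against 22.4%, and 1 lower, against 23.4%. In anti-CD40 1 was higher, against 10.9%, and 0 lower, against 10.7%. In TCT 0 were called in either direction, against 16.1% higher and 14% lower, and in DNBS 0, against 3.95% higher and 2.21% lower. At an unadjusted p under 0.05, the genes in TCT were Il17re and Il17ra, lower and higher, and those in DNBS were 0. On the 2 groups alone, DESeq2 called 2 genes in TCT and 1 in DNBS, and edgeR 1 and 0. The higher calls in DSS and IL-10 deficiency made up a larger share of the 9 genes than of all genes, that in anti-CD40 was about equal to it, and those in TRUC, TCT and DNBS were below it. With DSS mouse 8 left out of the fit, 4 of the 9 were higher in TRUC, against 23.6% of all genes, 2 in TCT, against 17.2%, and 2 in DSS, against 10.4%, so the shares in TRUC and TCT were then above those of all genes. In a test that the 6 changes were equal, 6 of the 9 genes were called, against 60.5% of all genes.

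**Figure D1:**
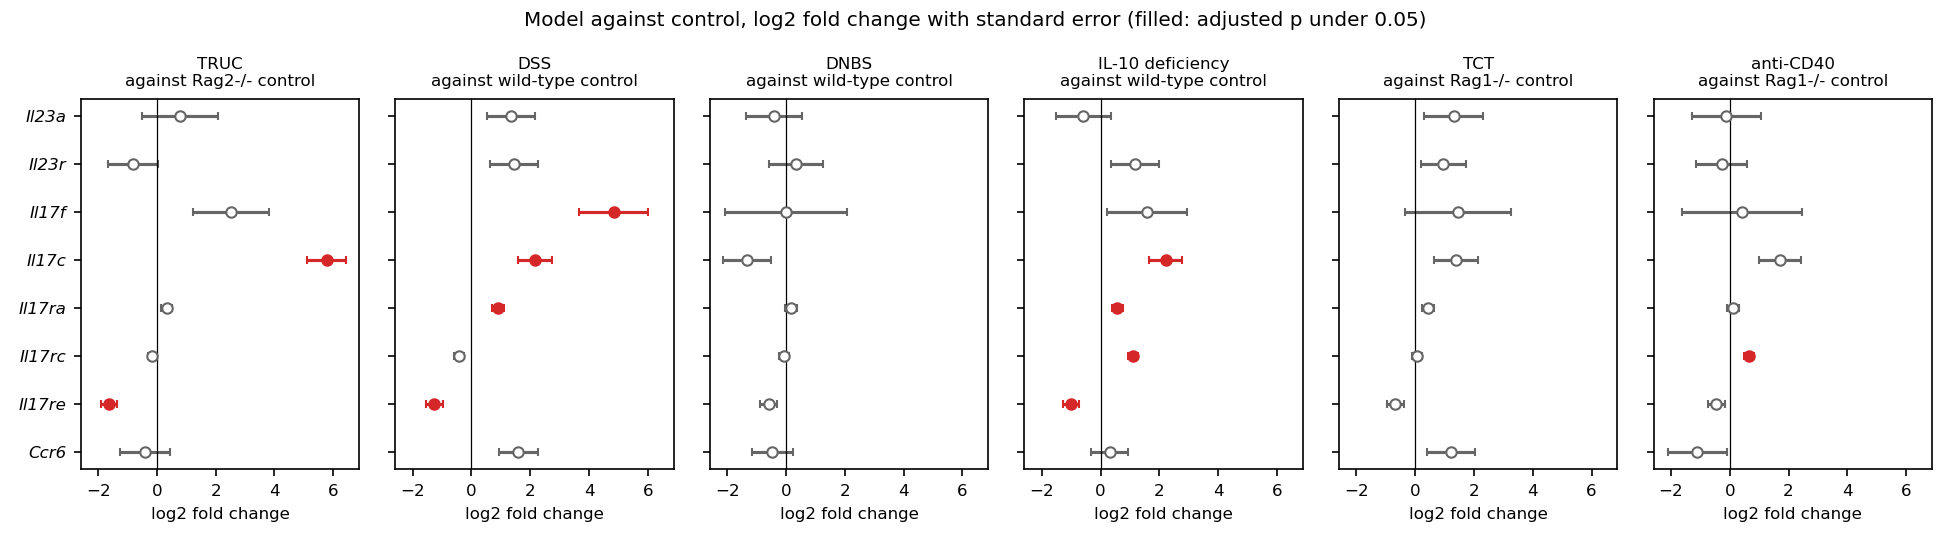
Log2 fold change of each model against its own control (x axis) with its standard error (bars) for 8 of the 9 genes (y axis). Filled points passed an adjusted p under 0.05. Il17a is left out because its controls had no count. Il17re lies left of 0 in all 6 panels, and Il17c reaches 5.78 in TRUC.

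Il17a and Il17f are neighbours on mouse chromosome 1 (GRCm38), Il17a at chr1:20730905-20734496 on the plus strand and Il17f at chr1:20777146-20790617 on the minus strand, with 42649 bases between them. Both encode cytokines of type 17 lymphocytes. Their RefSeq promoters (GRCm38.p6) are shown because both genes rose together in the mouse with the highest level of either. The Il17a window is chr1:20730655-20730904 and the Il17f window chr1:20784271-20784494, each read 5′ to 3′ on the strand of its gene. Capitals mark TATAAAA, the TATA box, and AGGTCA or its reverse complement TGACCT, a core motif of nuclear receptors.
Il17a: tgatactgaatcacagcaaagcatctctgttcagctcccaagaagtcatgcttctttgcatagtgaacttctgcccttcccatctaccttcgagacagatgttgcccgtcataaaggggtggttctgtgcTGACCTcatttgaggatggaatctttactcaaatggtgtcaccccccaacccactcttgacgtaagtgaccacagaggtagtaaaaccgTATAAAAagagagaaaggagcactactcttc
Il17f: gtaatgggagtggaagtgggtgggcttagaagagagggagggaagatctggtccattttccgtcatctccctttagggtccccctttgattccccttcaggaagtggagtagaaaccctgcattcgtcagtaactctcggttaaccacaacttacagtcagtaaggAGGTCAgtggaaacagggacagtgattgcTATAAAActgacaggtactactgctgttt
Over both strands of the 250 bases before the start, TATAAAA was present in 4.98% and AGGTCA in 14% of 32851 RefSeq promoter windows, and both in 0.718%. RefSeq entries were found for 7 of the 9 genes, in 8 windows, and AGGTCA occurred in 4 of these, those of Il17a, Il17f, Il23r and 1 of the 2 windows of Ccr6. TATAAAA occurred in 2, those of Il17a and Il17f. No entry was matched for Il23a or Il17ra. A match describes letters and not binding.

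Il17a had counts in 16 of the 20 colitis mice and in 0 of the 9 controls. In IL-10 deficiency the 4 mice had 14, 9, 12 and 10 counts, or 0.935 to 1.18 CPM. The group was at least 4.66-fold above the wild-type controls when those are set at the floor of 3 counts per library (edgeR, adjusted p = 0.0211). The call was lost without wild-type mouse 1 or 2 (adjusted p = 0.0535 and 0.0579). In DSS the counts were 4 and 1 in mice 5 and 6 and 164 in mouse 8. The mean was at least 19.9-fold higher, and both this bound and the call (edgeR, adjusted p = 0.00282) rested on mouse 8, at 13.1 CPM against 0.252 and 0.0683 CPM in the others. Without it the adjusted p was 0.0753 and no bound above the floor of the controls remained.

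TRUC mice had 4, 6, 5 and 7 Il17a counts, at least 1.93-fold over the floor of their Rag2-/- controls, and TCT mice had 6, 2 and 8, at least 1.99-fold. All 4 TRUC mice and 2 of the 3 TCT mice had more than the 3 counts that a count of 0 allows. In the fit of all groups neither passed, with adjusted p = 0.0983 in TRUC and 0.139 in TCT by edgeR. That fit takes its spread for each gene from all groups, DSS mouse 8 included. Without that mouse the adjusted p in edgeR was 0.00207 in TRUC and 0.00368 in TCT, without DSS mouse 6 it was 0.0429 in TRUC, and in DESeq2 on the 2 groups compared it was 0.00133 and 0.00933. DNBS mice had 0, 0 and 4 counts and anti-CD40 mice 0, 1 and 0. Only DNBS mouse 16 was above the floor, and neither group's mean was, so no fold is given. The changes of Il17a differed between the 6 models (edgeR, adjusted p = 0.0305).

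**Figure D2:**
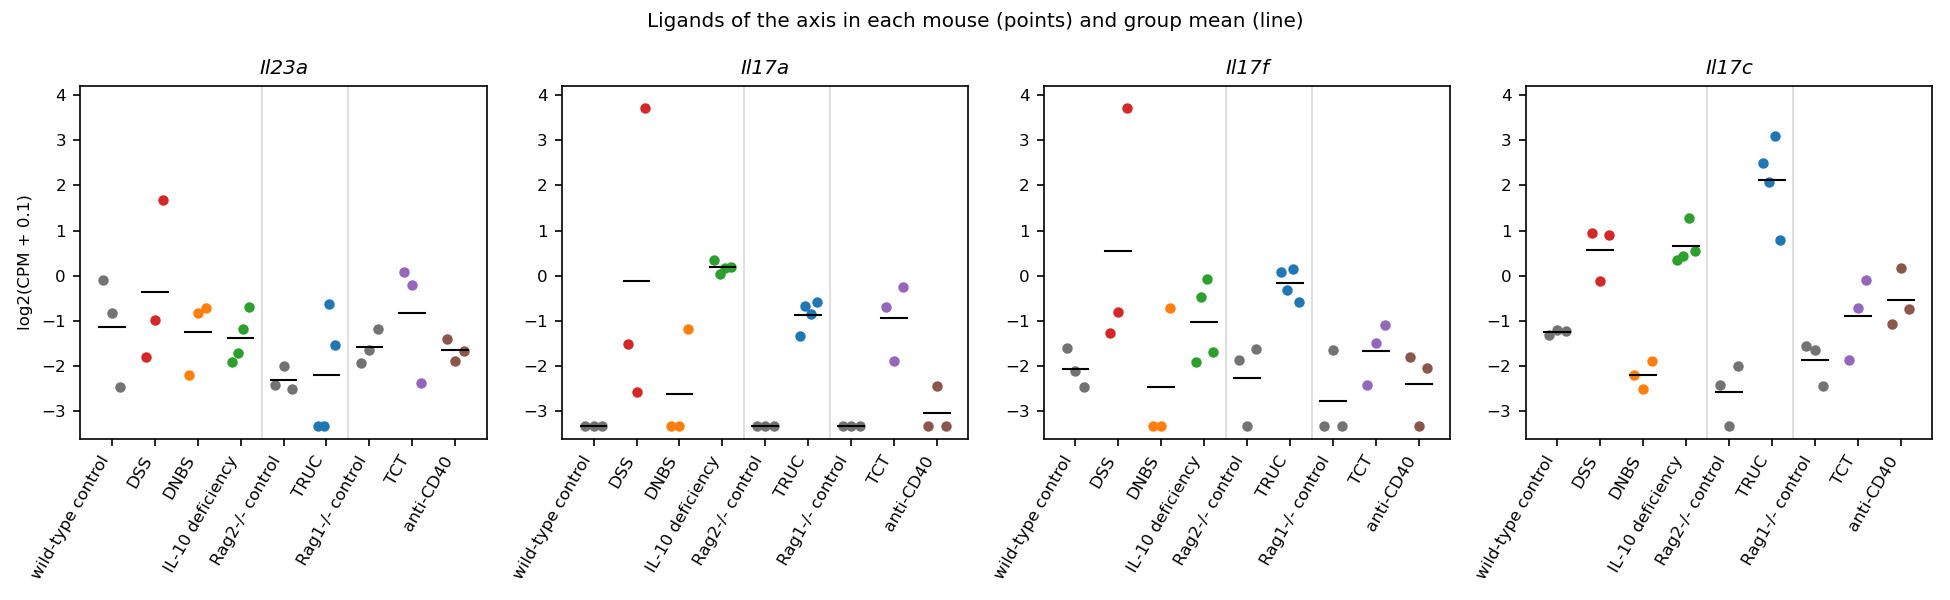
Level of the 4 ligand genes in each mouse (points) as log2(CPM + 0.1) by group, with the group mean as a line, controls in grey. Il17a is at the bottom of the scale in all 9 control mice, and 1 DSS mouse lies far above the others for Il23a, Il17a and Il17f.

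Il17f was detected at 0 to 3 counts in control mice. DSS mice had 5, 7 and 163 counts, TRUC mice 13, 8, 11 and 7, and IL-10 deficiency mice 2, 6, 10 and 2. TRUC and DSS lay above every mouse of their controls, while IL-10 deficiency overlapped the wild-type controls, which had 3, 2 and 1. Over summed counts the ratio was 27.3 in DSS (95% exact interval 12.3 to 75.5), 6.11 in TRUC (2.41 to 19.9) and 3.15 in IL-10 deficiency (1.22 to 9.58). In edgeR the adjusted p was 0.00267 in DSS, 0.118 in TRUC and 0.336 in IL-10 deficiency. The size in DSS came from mouse 8, without which the fold there was 2.55 (adjusted p = 0.357), while TRUC then passed (0.0177). The other models had at most 6 counts in any mouse, and the changes differed between models (edgeR, adjusted p = 0.00636).

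The balance of both cytokines differed by value between groups. This comparison was chosen after the values were seen and was not tested. Shares are of raw counts and are not corrected for exon length, 1171 bases in Il17a and 2022 in Il17f. Per base of exon, mean Il17a and Il17f were 0.396 and 0.401 FPKM in TRUC and 0.894 and 0.230 FPKM in IL-10 deficiency. They were 0.409 and 0.118 FPKM in TCT and 3.82 and 2.28 FPKM in DSS. So the shares compare groups and do not show which gene was the more abundant. Il17a made up 69.2% of the 65 counts of the pair in IL-10 deficiency (95% exact interval 56.6 to 80.1%), 66.7% of 24 in TCT (44.7 to 84.4%), 49.1% of 344 in DSS (43.7 to 54.5%) and 36.1% of 61 in TRUC (24.2 to 49.4%). Per mouse the share ran from 54.5 to 87.5% in IL-10 deficiency and from 23.5 to 50% in TRUC, without overlap, and the TCT mice, at 40 to 85.7%, overlapped both. In DSS, 327 of the 344 counts were those of mouse 8, and the shares per mouse were 44.4, 12.5 and 50.2%. Summed T-cell markers stood beside this at 73.8 to 128 CPM in IL-10 deficiency, 96.1 to 176 CPM in TCT, 34.2 to 55.4 CPM in DSS and 7.23 to 9.07 CPM in TRUC, and their part in the share was not tested.

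**Figure D3:**
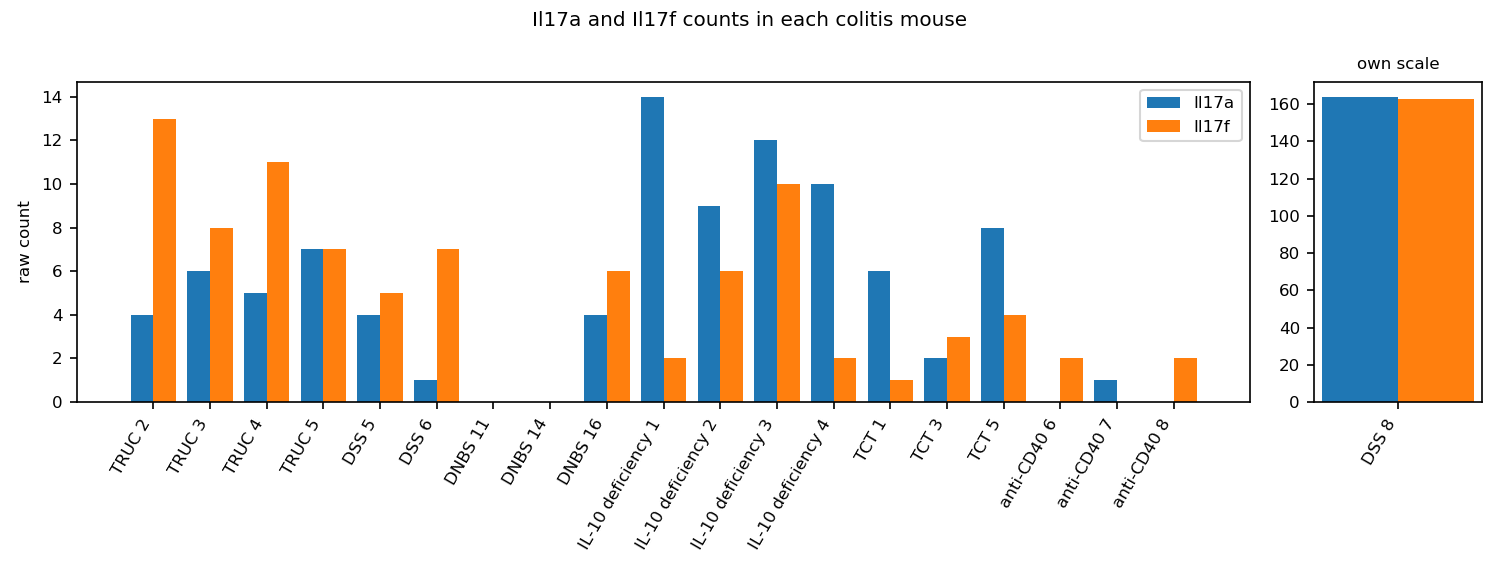
Raw counts of Il17a (blue) and Il17f (orange) in each of the 20 colitis mice, with DSS mouse 8 on a scale of its own. By raw count, not corrected for exon length, Il17a exceeds Il17f in all 4 IL-10 deficiency mice. Il17f is at or above Il17a by raw count in all 4 TRUC mice. Per base of exon, Il17a is higher in TRUC mice 3 and 5 and lower in mice 2 and 4.

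The summed marker levels of lymphocytes moved with these ligands in some groups and not in others. In the Rag2-/- controls the T-cell markers summed to 2.30 to 5.96 CPM, below TRUC. There 4 of the 6 T-cell markers and 2 of the 4 gamma-delta markers were called higher, against 22.4% of all genes. Summed gamma-delta T-cell markers were 13.5 to 16.3 CPM in IL-10 deficiency against 1.31 to 1.45 CPM in wild-type controls, and 1.16 to 3.75 CPM in TRUC against 0.535 to 1.06 CPM. They were also 11.1 to 17.5 CPM in TCT against 0.736 to 1.30 CPM, although only naive CD4+ T cells were transferred there. So this sum does not single out gamma-delta T cells. Of these markers the delta chain gene Trdc was called in IL-10 deficiency (adjusted p = 0.00225, edgeR). In TRUC and TCT it was not (0.107 and 0.385). Summed markers of group 3 innate lymphoid cells were 64.1 to 74.3 CPM in TRUC and 60.1 to 67.4 CPM in its controls. Of 5 markers 1 was called higher, near the 22.4% of all genes. In whole tissue, more cells of a type and more RNA per cell cannot be told apart.

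Il17c (chr8:122422020-122423639, plus strand) showed the largest fitted change of the 9 genes in TRUC. Its exons share no base with those of Gm20388, an annotated locus on the same strand that spans it. Rag2-/- controls had 1, 0 and 2 counts and TRUC mice had 75, 46, 92 and 20, so the groups were far apart. The ratio of summed counts was 60.8 (95% exact interval 20.6 to 297), and the fitted log2 fold change was 5.78 with a standard error of 0.675 (edgeR, adjusted p = 1.09e-06). In wild-type controls Il17c had 4, 5 and 4 counts. DSS mice had 29, 12 and 22, a 4.44-fold rise (edgeR, log2 fold change 2.15, SE 0.582, adjusted p = 0.00620), and IL-10 deficiency mice had 14, 12, 27 and 13, a 4.64-fold rise (log2 fold change 2.22, SE 0.565, adjusted p = 0.00224). Unlike Il17a and Il17f, the DSS call did not rest on mouse 8 (adjusted p = 0.0278 without it, edgeR).

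In the other 3 models Il17c was not called. TCT mice had 2, 6 and 9 counts and anti-CD40 mice 4, 12 and 7, against 3, 3 and 1 in the libraries labelled Rag1-/- control. The ratio was 2.69 (95% exact interval 1.06 to 7.66) in TCT and 3.40 (1.41 to 9.39) in anti-CD40, where every mouse was above the controls, and in edgeR the adjusted p was 0.165 and 0.0853. Without TRUC mouse 5 the latter was 0.0491. Against the Rag2-/- controls instead, which by label differ in strain, both passed, with adjusted p = 0.0282 for TCT and 0.0149 for anti-CD40 by edgeR. DNBS mice had 2, 1 and 2 counts, all below the wild-type controls, with a ratio of 0.375 (0.105 to 1.12) and adjusted p = 0.320 by edgeR. The changes of Il17c differed between models (edgeR, adjusted p = 0.000114).

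Il23a, the p19 chain (chr10:128296139-128298752), was called in 0 of the 6 models, with adjusted p from 0.217 to 0.969 in edgeR, and 0.187 for unequal change between models. Wild-type mice had 11, 7 and 1 counts, the broadest spread of the controls. DSS mice had 3, 6 and 39, TCT mice 11, 9 and 1, TRUC mice 0, 0, 6 and 3, and IL-10 deficiency mice 2, 2, 4 and 5. Each of these groups overlapped its own controls. The high DSS value was again that of mouse 8, without which the log2 fold change was -0.64 in place of 1.34. No change of Il23a was called at these low counts, which does not show that there was none.

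Il12b, the p40 chain shared by IL-23 and IL-12, was called higher in 4 models. It had 49, 40, 41 and 22 counts in TRUC against 0, 8 and 7 in Rag2-/- controls (7.91-fold, adjusted p = 0.0145 in edgeR), and 18, 16, 37 and 9 in IL-10 deficiency against 3, 0 and 3 in wild-type controls (adjusted p = 0.0128). In DSS it had 27, 11 and 173 counts (adjusted p = 0.00133, and 0.0438 without mouse 8) and in TCT 27, 9 and 25 against 0, 0 and 1 (adjusted p = 0.00827). Anti-CD40 mice had 7, 8 and 6, above their controls but not called (adjusted p = 0.116, and 0.0483 without DSS mouse 8). Whether Il12b and Il23a changed unequally was not tested.

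Il23r (chr6:67422932-67491855) had 0 to 11 counts per mouse. The highest values were 11 in DSS mouse 8 and 9 in TCT mouse 1, and every model overlapped its controls. It was called in 0 of the 6 models (edgeR, adjusted p from 0.175 to 0.859), and at a mean count of 3.31 it was the member nearest to the filter. The calls depended on a control. Without wild-type mouse 4, which had 5 counts against 1 and 0 in the others, Il23r passed in DSS and in IL-10 deficiency (adjusted p = 0.0291 and 0.0290 by edgeR). Il12rb1, the receptor chain that pairs with IL-23R and is also part of the IL-12 receptor, rose 7-fold in TRUC, 7.91-fold in DSS, 11-fold in IL-10 deficiency and 10.9-fold in TCT (adjusted p = 0.00444, 0.00195, 0.000194 and 0.000395 by edgeR). In DSS it was 3.36-fold without mouse 8 and no longer called (adjusted p = 0.0536).

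**Figure D4:**
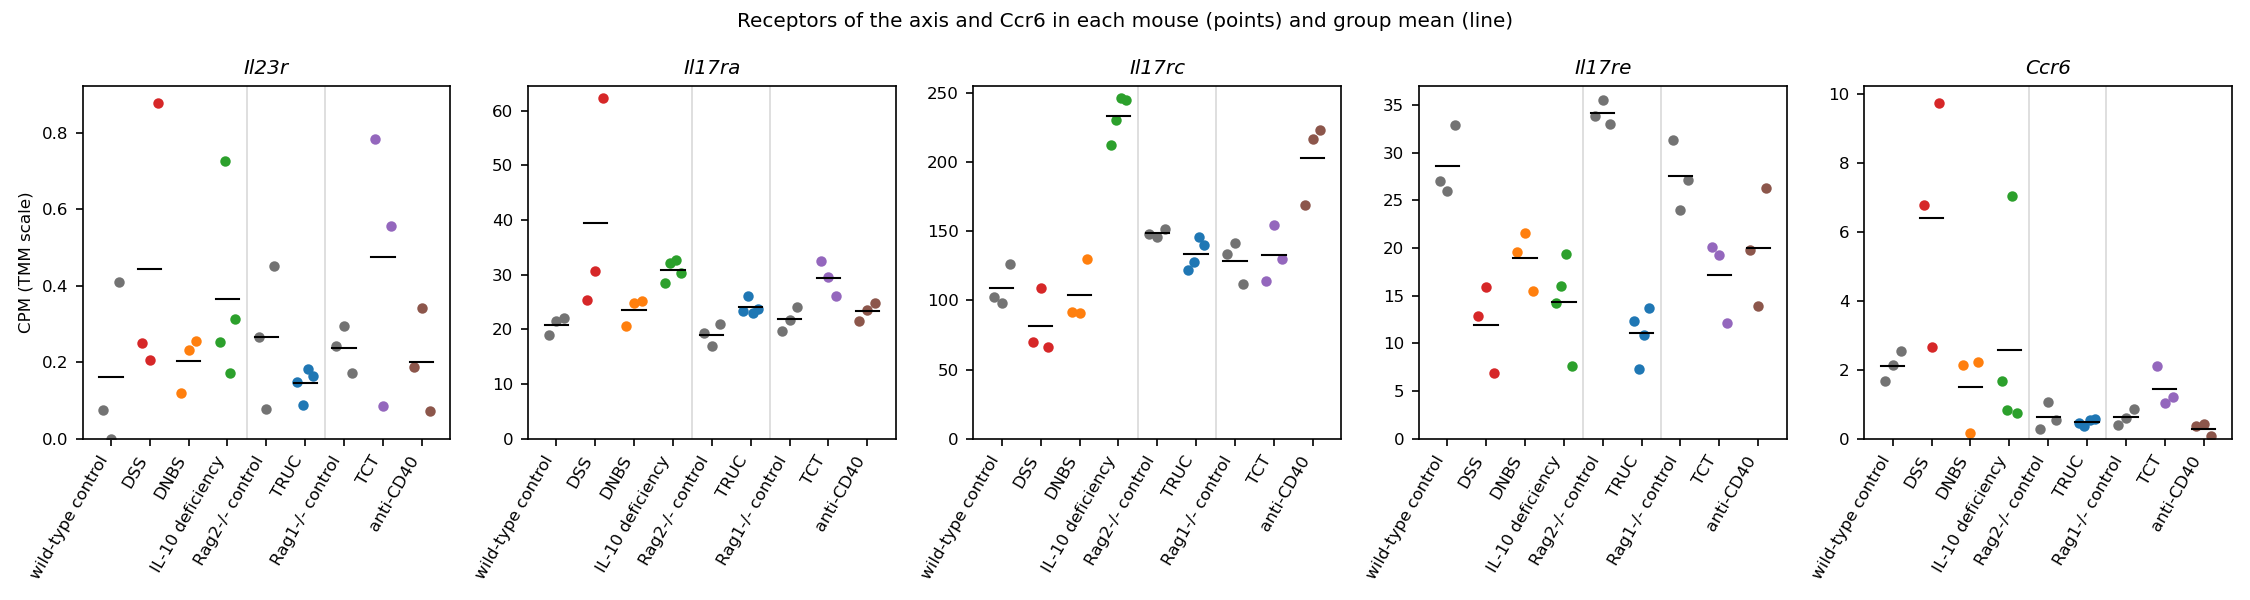
Level of the 4 receptor genes and Ccr6 in each mouse (points, CPM) by group, with the group mean as a line, controls in grey and axes from 0. Il17rc is highest in IL-10 deficiency and anti-CD40, the mean of Il17re is lower in each model than in its controls, and Ccr6 in TRUC, anti-CD40 and the Rag-deficient controls lies below the wild-type mice.

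Il17ra (chr6:120463247-120487559), the chain common to the receptors of IL-17A, IL-17F and IL-17C, was higher by value in all 6 models under TMM, RLE and upper quartile scaling, and the changes were small. Wild-type controls ranged from 19.0 to 22.0 CPM. DSS mice had 25.3, 30.6 and 62.2 CPM, a 1.89-fold rise (edgeR, log2 fold change 0.92, SE 0.202, adjusted p = 0.00127), which passed also without mouse 8 (log2 fold change 0.42, adjusted p = 0.0235) but not in edgeR on the 2 groups alone (0.0862). IL-10 deficiency mice had 28.5 to 32.7 CPM, a 1.48-fold rise (SE 0.191 on the log2 scale, adjusted p = 0.0153) that did not pass under upper quartile scaling (adjusted p = 0.0618) or without wild-type mouse 1 (0.0681). All mice of both groups were above the controls. TRUC mice, at 23.0 to 26.1 CPM against 16.9 to 20.9 CPM, and TCT mice, at 26.0 to 32.6 CPM against 19.7 to 24.1 CPM, were also above theirs without overlap but not called (adjusted p = 0.157 and 0.112 by edgeR). Without DSS mouse 8 both were called (adjusted p = 0.0169 and 0.00667). DNBS and anti-CD40 overlapped their controls, and the changes differed between models (edgeR, adjusted p = 0.0254).

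Il17rc and Il17re lie next to each other on chromosome 6, Il17re at chr6:113458484-113470758 and Il17rc at chr6:113471427-113483140, on the same strand with 668 bases between them. They encode the partners of IL-17RA for different ligands, IL-17RC for IL-17A and IL-17F and IL-17RE for IL-17C. In IL-10 deficiency Il17rc was called higher and Il17re lower. By value the directions were the same in anti-CD40 (log2 fold changes 0.66 and -0.46, only Il17rc called). They were the same in TCT too (0.05 and -0.68, neither called). In TRUC, DSS and DNBS both changes were below 0 by value.

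Il17rc in IL-10 deficiency reached 212, 231, 246 and 245 CPM against 103, 98.2 and 126 CPM in wild-type controls, a 2.14-fold rise (edgeR, log2 fold change 1.10, SE 0.162, adjusted p = 9.97e-06). In anti-CD40 it was 169, 217 and 223 CPM against 133, 141 and 112 CPM, a 1.58-fold rise (log2 fold change 0.66, SE 0.169, adjusted p = 0.00772), and against Rag2-/- controls, at 146 to 152 CPM, the adjusted p was 0.0526. Both groups lay wholly above their controls. TRUC, DNBS and TCT overlapped theirs, and DSS, at 69.7, 109 and 66.6 CPM, had a log2 fold change of -0.41 (adjusted p = 0.0603, edgeR), which passed under upper quartile scaling (adjusted p = 0.0377) and without DSS mouse 6 (0.00250) or DNBS mouse 16 (0.0364). It was -0.29 without DSS mouse 8 (adjusted p = 0.274). The test for unequal change gave an adjusted p of 4.76e-07 (edgeR), the lowest of the 9 genes.

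Epithelial markers moved with Il17rc in part. Their sum was 10732 to 15903 CPM in IL-10 deficiency and 7151 to 8647 CPM in wild-type controls. Of 7 markers 5 were called higher and 1 lower in IL-10 deficiency, against 27.2% and 26.1% of all genes. The sum was 10026 to 11462 CPM in anti-CD40 and 8358 to 9241 CPM in its controls, and 5492 to 7102 CPM in DSS. All 4 smooth muscle markers fell in IL-10 deficiency, to a sum of 2215 to 4191 CPM from 5751 to 6906 CPM. In TRUC the epithelial sum was also above that of its controls, at 10627 to 11650 CPM against 9179 to 10200 CPM, and Il17rc was not higher there. The part of these markers in the result was not tested.

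Il17re was lower by value in all 6 models, also under RLE and upper quartile scaling. TRUC mice had 12.3, 7.29, 10.9 and 13.8 CPM against 33.9, 35.6 and 33.1 CPM in Rag2-/- controls, a 0.324-fold level (edgeR, log2 fold change -1.62, SE 0.275, adjusted p = 6.87e-05). DSS mice had 12.8, 15.9 and 6.87 CPM against 27.0, 26.0 and 32.9 CPM in wild-type controls (log2 fold change -1.26, SE 0.297, adjusted p = 0.00216). IL-10 deficiency mice had 14.2, 16, 19.4 and 7.63 CPM, a 0.502-fold level (SE 0.273 on the log2 scale, adjusted p = 0.00397). In these 3 models every mouse was below every control, and the call held in DSS without mouse 8 (adjusted p = 0.0216, edgeR).

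DNBS mice, at 15.5 to 21.6 CPM, and TCT mice, at 12.1 to 20.1 CPM, also lay below their controls without overlap, but Il17re was not called (adjusted p = 0.208 and 0.0836 by edgeR). In DESeq2 on the 2 groups compared both passed, with adjusted p = 0.0231 and 0.0156. In edgeR without IL-10 deficiency mouse 4 it was 0.0473 in TCT. Anti-CD40 mice, at 13.9 to 26.2 CPM, overlapped the labelled controls at 24.0 to 31.4 CPM (adjusted p = 0.272, edgeR). Unequal change between models was not called for Il17re (adjusted p = 0.0628, edgeR), which does not show that the changes were equal. In TRUC, DSS and IL-10 deficiency alike, the ligand Il17c was called higher and the ligand-specific receptor chain Il17re lower. In these models every mouse was above its controls for Il17c and below them for Il17re.

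Ccr6 (chr17:8236043-8257141) had the widest spread within groups of the genes with moderate counts. Wild-type mice had 1.68, 2.13 and 2.54 CPM, and Rag-deficient controls 0.265 to 1.07 CPM. DSS mice had 6.79, 2.66 and 9.75 CPM, all above the wild-type controls, with a log2 fold change of 1.59 (SE 0.661, adjusted p = 0.0655 in edgeR), and DESeq2 on the 2 groups gave an adjusted p of 0.00904. In edgeR it passed without DSS mouse 6 (0.0293), DNBS mouse 14 (0.0388) or IL-10 deficiency mouse 3 or 4 (0.0242 and 0.0471), and without DSS mouse 8 the log2 fold change was 1.16 (0.249). IL-10 deficiency mice had 1.69, 0.831, 7.03 and 0.731 CPM, and DNBS mice 2.15, 0.155 and 2.22 CPM. Both overlapped the controls. TCT mice had 2.09, 1.03 and 1.20 CPM, above the labelled controls at 0.405 to 0.860 CPM but not called (adjusted p = 0.273, edgeR). Against the wild-type controls the direction turned, with a log2 fold change of -0.55 (adjusted p = 0.584). The changes differed between models (edgeR, adjusted p = 0.0265).

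B-cell markers moved with the highest and lowest Ccr6 values in the models that have B cells. The mouse with the highest Ccr6 in DSS (mouse 8), IL-10 deficiency (mouse 3) and DNBS (mouse 16) had the highest summed B-cell markers of its group, at 359, 284 and 85.7 CPM, and the lowest Ccr6 went with the lowest sum in each, at 117, 33.5 and 28.7 CPM. In Rag-deficient controls, TRUC and anti-CD40 the sum was at most 1.71 CPM. In TCT it was 2.14 to 4.54 CPM and Ccr6 was 1.03 to 2.09 CPM. The part of these markers in the Ccr6 values was not tested.

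Models were also compared directly, where they share a control or a labelled strain. DSS against DNBS gave 5 calls among the 9 genes, all higher in DSS, against 22.6% of all genes in either direction: Il17a, Il17f, Il17c, Il17ra and Ccr6. Without DSS mouse 8 only Il17c was called (adjusted p = 0.00740 against 0.00114 with it, edgeR), with 12 to 29 counts in DSS and 1 to 2 in DNBS. IL-10 deficiency against DSS gave 2, against 49.8%. Il17rc was 2.86-fold higher (adjusted p = 2.74e-07) and Il17f lower (adjusted p = 0.00523), and without mouse 8 Il17f did not differ by call (adjusted p = 0.841) while Il17a was higher in IL-10 deficiency (adjusted p = 0.00975). IL-10 deficiency against DNBS gave 2, against 33.9%, with Il17c 11.8-fold and Il17rc 2.24-fold higher (adjusted p = 0.000362 and 3.47e-05, all by edgeR).

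TCT against anti-CD40 gave 1 call, against 18.4% of all genes, with Il17rc at a 0.655-fold level in TCT (edgeR, adjusted p = 0.0125). The untreated Rag2-/- and wild-type mice gave 0 calls by edgeR, against 8.11%. At an unadjusted p under 0.05 there were 3, Il17rc, higher in Rag2-/-, and Ccr6 and Il17c, lower. TCT and anti-CD40 were also set against Balb/C controls, which differ from them in labelled strain, so strain and treatment cannot be told apart there. TCT against the wild-type controls gave 0, against 30.8%, and against Rag2-/- controls 3, against 32.0%: Il17c and Il17ra higher (adjusted p = 0.0282 and 0.0209) and Il17re lower (adjusted p = 0.0121). Anti-CD40 against Rag2-/- controls gave 1, Il17c, against 24.2%. So with all mice in the fit 3 of the 9 genes were called in TCT with Rag2-/- controls and 0 with the other controls. Without DSS mouse 8, TCT against anti-CD40 gave 3 calls and IL-10 deficiency against DNBS 4.

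Around these genes, the wider pathway was counted by fixed lists. Of 14 known targets of IL-17 in epithelium and stroma, 13 were called higher in DSS, 11 each in TRUC and IL-10 deficiency, 10 each in TCT and anti-CD40 and 8 in DNBS, with 1 lower, in DSS. The list's median log2 fold change was 7.61 for DSS, 5.54 for TRUC, 5.02 for IL-10 deficiency, 4.51 for TCT, 4.09 for anti-CD40 and 3.23 for DNBS, against -0.03 to 0.02 over all genes tested. The DSS median includes mouse 8 and is given only with it, so the rank of DSS may rest on that mouse. With DSS mouse 8 left out, 12 of 13 tested were higher in DSS and 10 in DNBS, against 10.4% and 6.18% of all genes. Cxcl1, a neutrophil chemokine, rose most in TRUC (179-fold) and DSS (147-fold) and least in DNBS (14.4-fold) and anti-CD40 (21.3-fold) (adjusted p from 5.64e-07 to 0.0273, edgeR), with 75.0-fold in DSS without mouse 8. S100a8 and S100a9 of this list are also neutrophil markers, and 5 or 6 of the 6 neutrophil markers were called higher in every model. With all mice in the fit, the gene called lower was Pigr, the epithelial transporter of IgA (0.657-fold in DSS, adjusted p = 0.0240, and 0.175 without mouse 8). Without that mouse Pigr was called lower in TRUC, DNBS and TCT (0.753-fold, 0.663-fold and 0.712-fold, adjusted p = 0.0307, 0.0259 and 0.0248, edgeR). It was not called in IL-10 deficiency or anti-CD40. In DNBS and anti-CD40, targets of the list rose while Il17a was above the floor in 1 mouse of 6. Il22 had 10, 25 and 8 counts in anti-CD40 and 0, 0 and 19 in DNBS, with 0 in their controls. The paper reports that IL-22 also induces Cxcl1 and Cxcl5 in mouse colon organoids, so the list is not specific to IL-17. What raised its genes was not tested.

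Of 11 genes of IL-17 receptor signalling, 8 each were called higher in DSS (against 17.7% of all genes) and IL-10 deficiency (27.2%). In TCT 7 were higher (16.1%), in TRUC 6 (22.4%), in anti-CD40 2 (10.9%) and in DNBS 0 (3.95%). In TRUC 1 was lower (23.4%). Nfkbiz, the transcriptional co-activator IkB-zeta, rose 5.48-fold in TRUC, 3.14-fold in DSS and 2.13-fold in TCT (adjusted p = 3.37e-05, 0.00221 and 0.0332 by edgeR), and in IL-10 deficiency by 1.81 on the log2 scale (0.000374). In DSS it was 1.86-fold without mouse 8 and not called (0.0623). Traf3ip2, encoding the adaptor Act1, was called in IL-10 deficiency (1.28-fold, adjusted p = 0.0408), and without DSS mouse 8 also in anti-CD40 (0.0496). Of the 11, 4 were higher in DSS, 2 in DNBS and 5 in anti-CD40 when that mouse was left out. The shares of all genes were then 10.4%, 6.18% and 12.5%. Of 5 inhibitors, 4 each were higher in DSS and TCT, 3 in IL-10 deficiency, 2 each in TRUC and anti-CD40 and 1 in DNBS. In each of TRUC, DSS and IL-10 deficiency 1 was lower, near the shares of all genes (23.4%, 16.3% and 26.1%). Without DSS mouse 8, 3 were higher and 0 lower in DSS. Zc3h12a, the ribonuclease Regnase-1, was called higher in all 6, from 3.46-fold in DNBS to 13.3-fold in IL-10 deficiency.

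**Figure D5:**
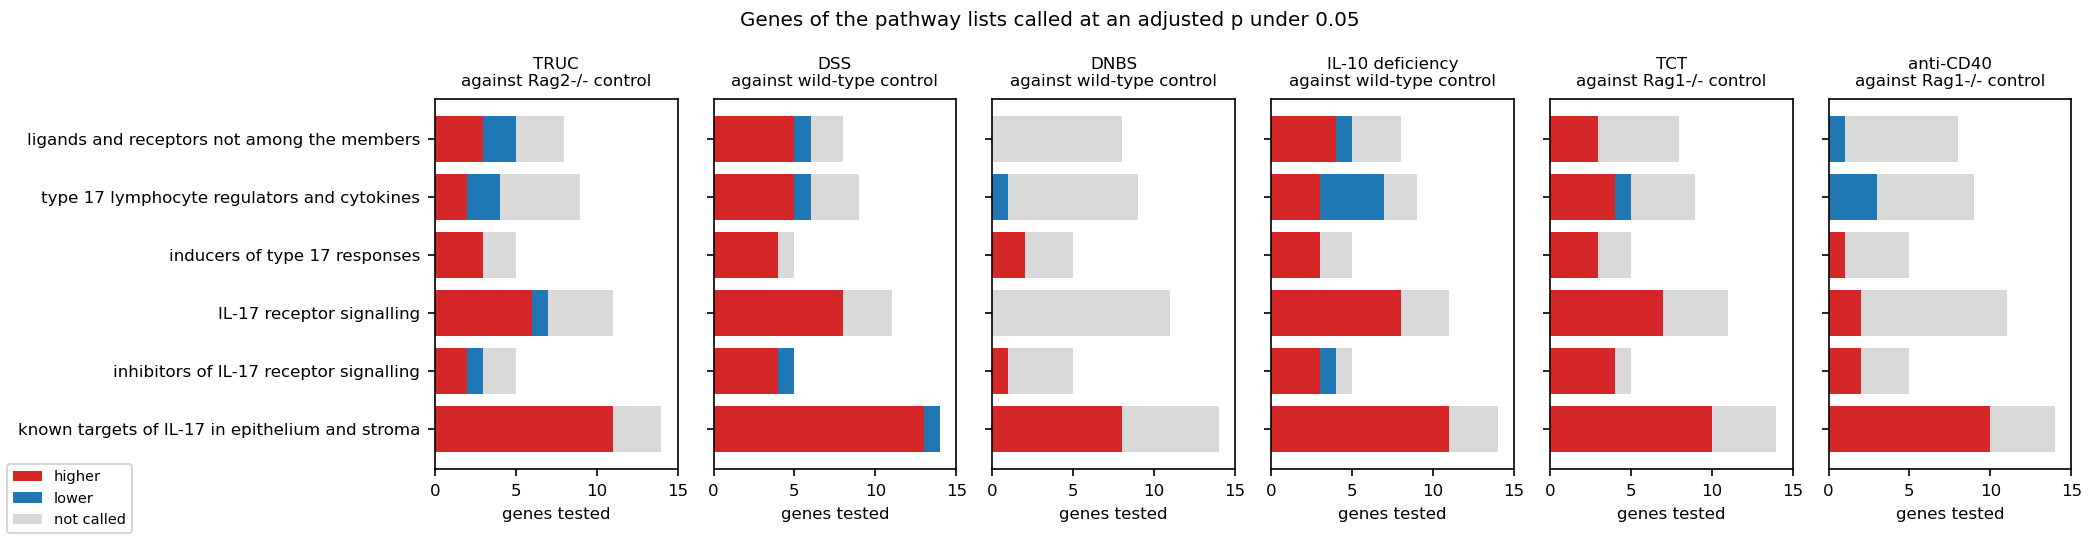
Number of genes tested (x axis) in each of 6 pathway lists (y axis) that were called higher (red), lower (blue) or not called (grey) in each model against its own control. In DNBS 0 genes of receptor signalling were called and 8 of 14 known targets, and without DSS mouse 8 these were 2 of 11 and 10 of 13.

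Upstream, the lists went less uniformly. Of 9 tested type 17 regulators and cytokines, 2 were higher and 2 lower in TRUC, 5 and 1 in DSS, 0 and 1 in DNBS, 3 and 4 in IL-10 deficiency, 4 and 1 in TCT and 0 and 3 in anti-CD40. The counts in TRUC were about equal to the shares of all genes there, 22.4% higher and 23.4% lower. Il22, a cytokine of type 17 lymphocytes, had 30, 21, 34 and 16 counts in TRUC and 30, 10 and 633 in DSS, and was called in these 2 models (adjusted p = 0.0259 and 0.000601). With DSS mouse 8 left out it was called in these and in IL-10 deficiency, TCT and anti-CD40 (adjusted p from 0.00148 to 0.0156, edgeR). Of 5 inducers, 4 were higher in DSS, 3 each in TRUC, TCT and IL-10 deficiency, 2 in DNBS and 1 in anti-CD40, with Il1b called in all 6, from 7.65-fold in anti-CD40 to 354-fold in DSS, where it was 49.6-fold without mouse 8.

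Of the 8 tested ligands and receptors outside the 9 genes, 3 were higher and 2 lower in TRUC, 5 and 1 in DSS, 4 and 1 in IL-10 deficiency, 3 and 0 in TCT, 0 and 1 in anti-CD40, and 0 in DNBS. The 2 lower in TRUC were near the 23.4% of all genes there. In DSS 2 were higher when mouse 8 was left out, against 10.4% of all genes. Ccl20, the ligand of CCR6, rose 5.03-fold in IL-10 deficiency and 4.09-fold in DSS (adjusted p = 0.00427 and 0.0207 by edgeR). IL-10 deficiency mice had 13.6, 22.6, 23.0 and 1.15 CPM against 2.26 to 3.58 CPM in wild-type controls, so mouse 4 lay below every control. DSS mice, at 6.07 to 23.1 CPM, all lay above the controls. Il17rd, which encodes a further receptor of the family, fell in IL-10 deficiency, DSS and anti-CD40 (0.379-fold, 0.610-fold and 0.528-fold, with adjusted p = 8.92e-05, 0.0403 and 0.0179), the DSS call being lost without mouse 8 (0.142). Il17d was lower in TRUC (0.695-fold, adjusted p = 0.0255). Il17b and Il25 were under the count filter.

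The genes whose group means were most like those of each member were read as a description over 9 groups, with Pearson's r of mean log2 CPM and no test. The groups share libraries, depth and tissue makeup. Il17re was closest to Car2 (r = 0.989), a carbonic anhydrase of the surface colonocyte, then Phlpp2 (0.983) and Nr5a2 (0.979). Il17rc was closest to Tmbim6 (0.978), Il17ra to Wfdc21 (0.988) and the chemokine gene Ccl4 (0.973), Il17c to Pfkfb4 (0.947) and Adm (0.943), which respond to hypoxia in many cells, and Ccr6 to Gpr183 (0.978), a receptor that guides B cells. Il17a was closest to Prr5l (0.971), Il17f to E230029C05Rik (0.989), Il23a to Gm2539 (0.979) and Il23r to Gm43460 (0.930).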

How the data were processed

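The deposited values are raw counts per gene and mouse, not normalized by the authors. The submitters' processing notes name Trimmomatic, HISAT2, HTSeq and the GRCm38 build; versions are not given in the sources used here. Rows of 92 spike-in controls held no count and were dropped, and no reads were found for 20470 of 54532 genes. Symbols were found for 54409 genes, and positions and exon lengths came from GENCODE M21 (GRCm38).

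Tests used edgeR 4.0.16 (R 4.3.3). A mean of 3 or more counts over the mice was required, which 18616 genes met, and these were scaled by TMM and fitted by the quasi-likelihood method with 9 groups and no covariate. Standard errors were taken as the absolute log2 change over the root of F, and p-values were adjusted by Benjamini-Hochberg over all genes tested at a threshold of 0.05. CPM and FPKM were computed here on the TMM scale. Ratios of summed counts have exact binomial intervals (95%). The code was tested on simulated data with known changes. Alternatives were RLE and upper quartile scaling, no filter, filterByExpr, a threshold of 0.01, edgeR and DESeq2 1.42.0 on the 2 groups compared, other controls, a replicate block and leaving out each mouse. The 9 genes and all lists were chosen with earlier results of these data known. Every gene of the fixed lists may be named, and the 3 genes most like each member were taken by Pearson's r among genes with a mean of at least 1 CPM.

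Labels call the mice of a group separate animals by number only, so p-values measure the spread between these libraries. Within groups, the lowest chi-square per degree of freedom of the counts was 3.42 over 33 pairs of mice, so none was counted as a repeat.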

Additional observations from a re-analysis of the deposited data

Results flagged for a closer look

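Unequal change over the 6 models passed the threshold of the F test in edgeR for 6 members, with adjusted p-values of 0.0305 for Il17a, 0.00636 for Il17f, 0.000114 for Il17c, 0.0254 for Il17ra, 4.76e-07 for Il17rc and 0.0265 for Ccr6. The models share control groups, and over all genes 60.5% passed the same test. Il17c was highest in TRUC, Il17rc in IL-10 deficiency, and Il17a, Il17f, Il17ra and Ccr6 in DSS mouse 8.

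A mouse far from the rest of its group was found in IL-10 deficiency for Il17c and for Ccr6. In both it was mouse 3, with 27 Il17c counts against 12 to 14 in the others and 82 Ccr6 counts against 7 to 20. Its gap to the next mouse was 0.843 of the range of the group for Il17c and 0.849 for Ccr6, over Dixon's critical value for 4 samples, which chance passes in about 1 in 20 groups. The summed B-cell markers of that mouse were 284 CPM against 33.5 to 118 CPM in the other 3. DSS mouse 8, far above its group for Il17a and Il17f, was in a group of 3 mice and was not among those flagged.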

How the results depend on the processing

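No call of a member changed direction under any alternative. The counts of members called that moved by over 1.5 times were these. In edgeR on the 2 groups alone TRUC had 5, DSS 2 and TCT 1. In DESeq2 on the 2 groups TRUC had 5, DNBS 1 and TCT 2, and DESeq2 gave no adjusted p for Il17a and Il17f in DSS, for 5 members in DNBS and for 6 in anti-CD40. At a threshold of 0.01 IL-10 deficiency had 3, DSS against DNBS 2, TCT against anti-CD40 0, and unequal change 3. Upper quartile scaling gave 4 in IL-10 deficiency against DSS and moved the median of all genes to -0.14 in TRUC and -0.18 in IL-10 deficiency. Rag2-/- in place of Rag1-/- controls gave 3 in TCT.

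Leaving out each mouse in turn gave 2 to 5 calls in TRUC, 3 to 7 in DSS, 3 to 6 in IL-10 deficiency, 0 to 2 in TCT, 1 to 2 in anti-CD40, 1 to 7 in DSS against DNBS, 2 to 6 in IL-10 deficiency against DSS, 2 to 4 in IL-10 deficiency against DNBS and 0 to 3 in TCT against anti-CD40, with 0 to 0 in DNBS and 4 to 7 members for unequal change. DSS mouse 8 moved most: without it TRUC had 5 calls, DSS 3 and TCT 2. Without wild-type mouse 1 IL-10 deficiency had 3, as Il17a (adjusted p = 0.0535) and Il17ra (0.0681) were lost, and without wild-type mouse 2 Il17a was lost (0.0579, all edgeR). The cause was not tested.

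With the replicate block TRUC had 3 calls and IL-10 deficiency 5, as the same mice had with no block, an alternative chosen after seeing the data. Deviations of mice with the same number correlated at -0.084 in TRUC and -0.020 to 0.050 in IL-10 deficiency. Only numbers 2 and 4 were shared in TRUC and 1, 2 and 4 in IL-10 deficiency. That is too few to decide whether the numbers pair mice.

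Depth limits Il23a, Il23r, Il17a and Il17f, each with 0 to 3 counts in many mice.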
